A study of Mus musculus with 2 samples.

Results

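The oxygen sensing and HIF pathway was followed in AIMP3-depleted mouse embryonic stem cells (mESCs) through 10 genes: the HIF subunits *Hif1a*, *Epas1* and *Arnt*, the oxygen-dependent enzymes *Egln1*, *Egln2*, *Egln3* and *Hif1an*, the ubiquitin ligase gene *Vhl*, and the HIF targets *Ankrd37* and *Ndufa4l2*. These 10 were taken from 37018 genes on the array, by matching the accession of each probe to the gene symbol. They are carried by 15 of 55681 probes. The HIF subunits and hydroxylases were picked for their function, whereas *Ankrd37* and *Ndufa4l2* were chosen by their measured log2 ratio in this same comparison, which was strongly below control. For this reason the ratios of all 10 genes are given as a description and without a test. Of these genes, 9 had a probe well above background on both arrays, in either channel, and entered the fit of 24022 genes. *Egln1* did not.

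AIMP3, encoded by *Eef1e1*, is a scaffold protein of the complex that holds several aminoacyl-tRNA synthetases together. The cells were AIMP3f/f;cre-ERT2 mESCs, derived from mouse blastocysts, in which tamoxifen (4-OHT) activates the recombinase and deletes the floxed gene. AIMP3-depleted cells received 2 μM tamoxifen and control cells received ethanol, in both cases for 4 days in medium with LIF, so control cells carried the same alleles but received no tamoxifen. RNA of the 2 AIMP3-depleted samples was labelled with Cy5 and hybridized to 1 array each, against 1 pool of RNA from 2 control cultures labelled with Cy3. The pool was the same on both arrays and counts as 1 control sample. The dyes were not swapped, so an effect of tamoxifen or of the dye cannot be told apart from an effect of AIMP3 depletion. Cells of this line were generally kept on feeder layers of mouse embryonic fibroblasts. For drug treatment the methods of the study name medium conditioned by such fibroblasts, and whether feeder cells remained at RNA extraction is not stated.

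Cells read oxygen through the stability of HIF alpha subunits. With oxygen present, the prolyl hydroxylases encoded by *Egln1*, *Egln2* and *Egln3* modify HIF alpha, the VHL protein recognises the modified subunit, and the proteasome destroys it. The asparaginyl hydroxylase encoded by *Hif1an* adds a further brake by blocking the contact with coactivators. When oxygen falls, HIF alpha pairs with the product of *Arnt* and binds short DNA sequences, named hypoxia response elements, near genes for glycolysis, mitochondrial restraint, vessel growth and matrix assembly. *Egln3* is itself such a target, as are *Ankrd37*, an ankyrin repeat gene, and *Ndufa4l2*, which encodes a mitochondrial protein known to restrain respiratory chain activity. Much of this control acts on protein, which these arrays did not measure.

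The targeted gene was examined first. The normalized intensity of *Eef1e1*, meaning the brightness of its probe after background correction and dye normalization, was 2453 in AIMP3-depleted cells against 4591 in the control pool on the array of replicate 1, and 2415 against 4492 on that of replicate 2. *Eef1e1* fell to 53.6% of control, a mean log2 ratio of -0.90 ± 0.0066 (SD, n = 2, limma adjusted p = 4.76e-05). Whether the probe lies in the deleted exons was not examined. Over all 24022 genes, 1328 rose and 190 fell at over 1.5-fold with an unadjusted limma p under 0.05, which is 5.53% raised and 0.791% lowered, and 54.3% had an adjusted p under 0.05 at any fold. At an unadjusted p under 0.05 and any fold 33.5% were higher and 27% lower. Raised genes made up 87.5% of the changed genes with loess normalization, 71.5% with the scanner software's processed signals and 97.8% with median centring. All 10 mESC markers were well above background in both channels, and so were all 10 fibroblast markers and all 10 primitive endoderm markers. Of the mESC markers 1 fell (*Tdgf1*, log2 ratio -0.59) and none rose, with a median log2 ratio of -0.22 and a highest value of 0.50 for *Dppa5a*. By the same rule 9 of 10 fibroblast markers and 10 of 10 primitive endoderm markers rose. Fewer cells of a type and less RNA per cell cannot be told apart in these bulk samples.

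To show the sequence context of the targets, the 250 bases before the transcription start of 5 genes are printed, from RefSeq on GRCm38.p6 and written 5′ to 3′ on the strand of the gene. *Ankrd37* and *Egln3* are shown as strongly lower genes, *Hif1a* as the subunit at the head of the pathway, *Bnip3* as the HIF target with the lowest ratio outside the 10 genes, and *Slc2a1* as a target that rose. Capitals mark the core letters of the hypoxia response element, ACGTG and GCGTG, on either strand, so that CACGT and CACGC are capital too and overlapping matches form longer runs.
*Ankrd37*: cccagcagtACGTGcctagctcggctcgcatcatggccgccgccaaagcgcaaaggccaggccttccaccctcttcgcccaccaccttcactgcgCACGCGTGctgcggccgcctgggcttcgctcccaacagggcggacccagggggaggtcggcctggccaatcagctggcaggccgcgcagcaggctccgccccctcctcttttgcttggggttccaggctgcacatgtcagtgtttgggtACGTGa
*Egln3*: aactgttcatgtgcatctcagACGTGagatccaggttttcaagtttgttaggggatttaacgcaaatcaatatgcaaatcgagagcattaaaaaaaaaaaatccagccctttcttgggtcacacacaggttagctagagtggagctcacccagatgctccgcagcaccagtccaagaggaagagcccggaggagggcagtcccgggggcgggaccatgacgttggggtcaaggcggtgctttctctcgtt
*Hif1a*: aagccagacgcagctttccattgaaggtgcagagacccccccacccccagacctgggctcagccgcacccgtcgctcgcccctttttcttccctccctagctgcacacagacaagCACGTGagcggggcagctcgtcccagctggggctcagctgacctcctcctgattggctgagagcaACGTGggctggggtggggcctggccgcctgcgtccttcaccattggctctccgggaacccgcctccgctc
*Bnip3*: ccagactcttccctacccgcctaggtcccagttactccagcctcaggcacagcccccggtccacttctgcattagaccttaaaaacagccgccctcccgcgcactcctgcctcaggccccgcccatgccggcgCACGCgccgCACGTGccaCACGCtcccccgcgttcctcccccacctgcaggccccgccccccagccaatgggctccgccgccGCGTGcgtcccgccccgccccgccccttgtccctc
*Slc2a1*: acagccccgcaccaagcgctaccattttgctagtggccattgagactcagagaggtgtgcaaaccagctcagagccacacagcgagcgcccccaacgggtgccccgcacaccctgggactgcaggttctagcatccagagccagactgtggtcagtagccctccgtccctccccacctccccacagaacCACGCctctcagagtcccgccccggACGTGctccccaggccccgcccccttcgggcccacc

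The *Ankrd37* stretch lies at chr8:45999851-46000100 on the minus strand and holds 3 capital runs, one of which reads the core on both strands (CACGCGTG, from 155 to 148 bases before the start). The run nearest the start begins only 6 bases before it. The *Egln3* stretch, at chr12:54203875-54204124 on the minus strand, holds a lone ACGTG that begins 229 bases before the start. The *Hif1a* stretch at chr12:73907617-73907866 on the plus strand holds 2 runs, one of them the palindrome CACGTG. *Bnip3*, at chr7:138909507-138909756 on the minus strand, has 4 runs, 3 of which lie between 117 and 95 bases before the start. *Slc2a1*, at chr4:119108495-119108744 on the plus strand, has 2 runs, both within 61 bases of the start.

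The core letters are common. Of 32851 promoter stretches of this length, 16.6% held ACGTG and 28.2% held GCGTG on either strand. Among the 9 stretches of the 8 listed genes of the 10, 5 held ACGTG and 5 held GCGTG, and neither motif was found for *Vhl* or *Hif1an*. No promoter is printed for *Ndufa4l2* or *Epas1*. Of the 60 HIF targets outside the 10 genes, 48 had listed stretches, 70 in all, of which 27 held ACGTG (38.6%) and 40 held GCGTG (57.1%). Of the 6 stretches of the 4 targets that fell, 1 held ACGTG and 5 held GCGTG. Only 5 of the 10 targets that rose had listed stretches. Of these 6 stretches, 4 held ACGTG and 4 held GCGTG, so both motifs occurred upstream of targets that moved in opposite directions. A match of letters does not show binding.

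The HIF subunit genes lay close to control, with *Epas1* modestly above it. *Hif1a*, the alpha subunit found in nearly all cells, had an intensity of 2255 in AIMP3-depleted cells against 2150 in the pool on the array of replicate 1 and 2036 against 1961 on that of replicate 2. Its log2 ratios were 0.069 and 0.054, or 104.4% of control. The AIMP3-depleted channel was slightly brighter on both arrays, by less than its own difference between arrays.

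*Epas1*, which encodes HIF-2 alpha, the subunit best known from endothelium and from erythropoietin control, had the highest ratio of the 9 measured genes. Its brightest probe read 9853 against 7656 on the array of replicate 1 and 9594 against 7273 on that of replicate 2. The log2 ratios of 0.36 and 0.40 averaged 0.38 ± 0.025 (SD, n = 2), which is 130.3% of control. The other probes gave mean log2 ratios of 0.24 and 0.23, and all 6 probe values lay between 0.20 and 0.40, below the 1.5-fold limit.

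*Arnt*, the common beta subunit, read 3902 against 4180 and 3604 against 4098. The log2 ratios of its brightest probe were -0.099 and -0.19 and its other probe averaged -0.063. The AIMP3-depleted channel was the dimmer on both arrays, but the sign of the mean turned with median centring, where it was 0.082.

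Among the genes that mark HIF alpha for destruction or silence it, *Egln3* alone of the 4 measured lay more than 1.5-fold from control. *Vhl*, the substrate-recognition subunit of the ligase, read 2575 against 2421 on the array of replicate 1 and 2404 against 2384 on that of replicate 2, log2 ratios of 0.089 and 0.012. *Egln2*, which encodes PHD1, read 10220 against 9257 and 9721 against 8999. Its log2 ratios of 0.14 and 0.11 and the 0.17 of its other probe put it slightly above control on both arrays and both probes.

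*Hif1an*, the asparaginyl hydroxylase known as FIH, read 399 against 444 and 384 against 439, log2 ratios of -0.16 and -0.19. The AIMP3-depleted channel was the dimmer on both arrays, at 88.6% of control, but with median centring the mean was -0.027. *Egln1*, which encodes PHD2, the main oxygen sensor in most cells, could not be assessed. Its only probe had a raw signal of 103 in Cy5 and 85.5 in Cy3 on the array of replicate 1, and 91.0 and 88.5 on the other, and was not well above background in either channel. No ratio is drawn from it.

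*Egln3*, which encodes PHD3, had a far lower ratio than the other hydroxylase genes. Its brighter probe read 1099 in AIMP3-depleted cells against 2208 in the pool on the array of replicate 1, and 818 against 2129 on that of replicate 2. Both AIMP3-depleted values lay far under both control values, and replicate 2 was the lower. The log2 ratios were -1.01 and -1.38, mean -1.19 ± 0.26 (SD, n = 2), or 43.7% of control.

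A separate *Egln3* probe gave log2 ratios of -0.70 and -0.96, so that all 4 values were beyond 1.5-fold lower while the size depended on the probe. That probe read 522 against 846 and 426 against 830. Ordered by mean ratio from the lowest, *Egln3* stood at 7 of 24022 genes, against 4605 for *Hif1an*, 13486 for *Vhl* and 16277 for *Egln2*. With each control value from the same pool, these positions describe 2 arrays and are not a test.

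**Figure D1:**
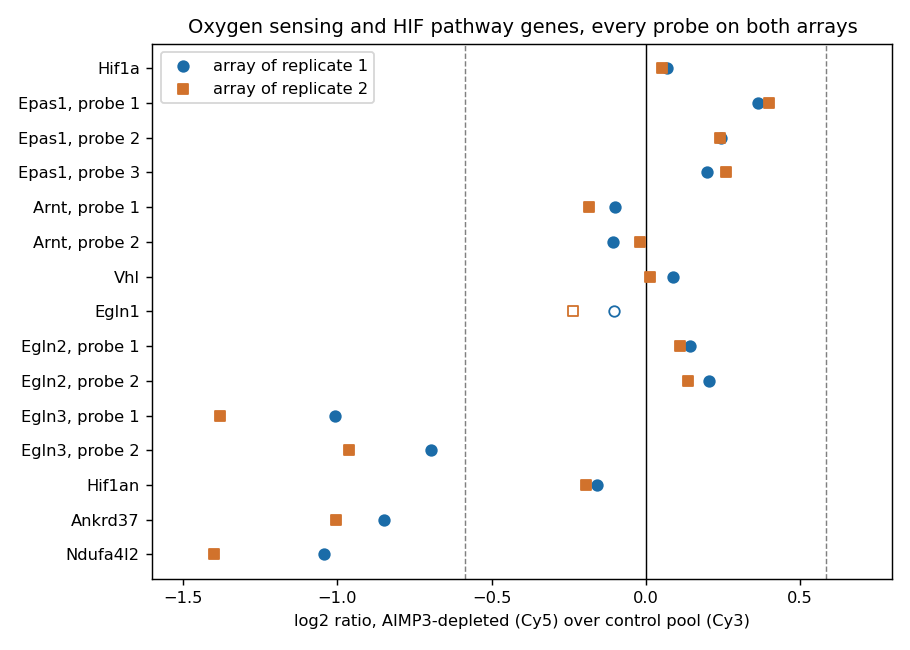
Log2 ratio of AIMP3-depleted cells (Cy5) over the control pool (Cy3) for each of the 15 probes of the 10 pathway genes, with 1 point for each array. Dashed lines mark 1.5-fold and open points mark *Egln1*, which was not well above background. Both *Egln3* probes, *Ankrd37* and *Ndufa4l2* lie left of the lower line on both arrays, and the other 10 filled probe rows lie between the lines.

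The HIF targets *Ankrd37* and *Ndufa4l2* were likewise far below control. *Ankrd37* read 880 against 1587 on the array of replicate 1 and 784 against 1573 on that of replicate 2. Its log2 ratios of -0.85 and -1.01 averaged -0.93 ± 0.11 (SD, n = 2), or 52.6% of control. The control values were nearly equal on the 2 arrays, and both AIMP3-depleted values lay far beneath them.

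*Ndufa4l2* read 391 against 804 on the array of replicate 1 and 293 against 773 on that of replicate 2. With log2 ratios of -1.04 and -1.40, mean -1.22 ± 0.25 (SD, n = 2), it had the lowest ratio of the 9 genes at 42.9% of control. It stood at 6 of 24022 genes from the lowest and *Ankrd37* at 25. The direction was the same on both arrays for all 3 of these genes.

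The arrays differed in how far these genes lay below control, and the difference came with the AIMP3-depleted channel. Between the arrays, the scanner software's processed Cy3 signal of *Ndufa4l2*, which is on another scale than the normalized intensities above, changed by -0.020 on the log2 scale (replicate 2 minus replicate 1) and its processed Cy5 signal by -0.55. For *Egln3* these changes of processed signal were -0.065 and -0.41, and for *Ankrd37* they were -0.010 and -0.17. Over 16419 probes with a processed signal above 8 on the log2 scale, the SD of this change was 0.084 in Cy3 and 0.10 in Cy5. The control pool, being the same RNA, thus read alike on both arrays for these genes, whereas the AIMP3-depleted samples were lower in replicate 2 than in replicate 1.

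**Figure D2:**
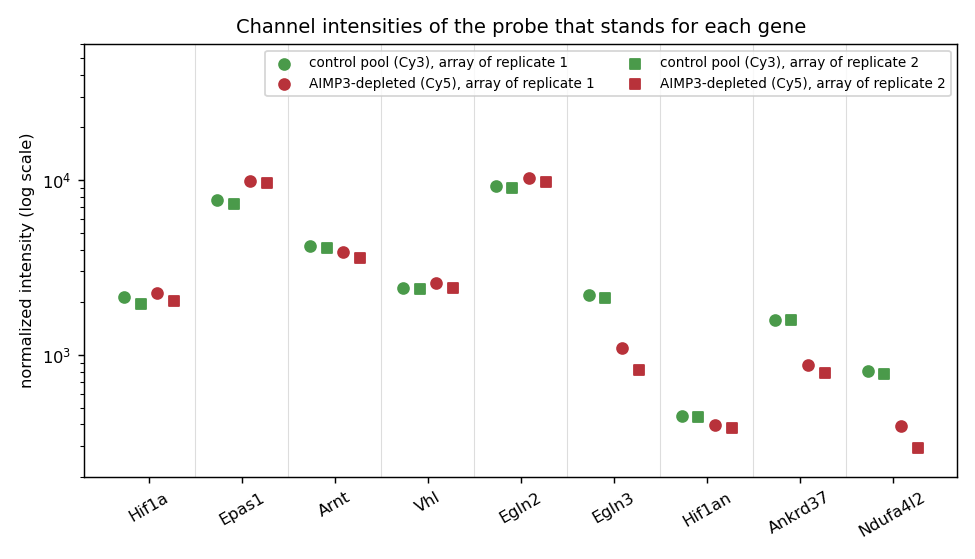
Normalized intensity (log scale, arbitrary units) of the probe standing for each of the 9 measured genes, control pool in green and AIMP3-depleted cells in red, circles for the array of replicate 1 and squares for that of replicate 2. Red lies well under green for *Egln3*, *Ankrd37* and *Ndufa4l2*, and the channels lie close together for *Hif1a*, *Vhl* and *Hif1an*. Heights of different genes come from different probes and are not to be compared.

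Genes with ratios most like these were sought among RefSeq-named genes well above background in both channels on both arrays, by the larger of the differences in log2 ratio on the 2 arrays. Over 14290 candidates, the nearest to *Ndufa4l2* was *Egln3*, which differed by at most 0.035 on either array. *Upp1* (-1.18 and -1.29) and *Ly6g6e* (-1.21 and -1.31) followed, at 0.14 and 0.16. Nearest to *Ankrd37* were *Epha8* (-0.84 and -0.99), *Adgrb2* (-0.87 and -1.01) and *Usp28* (-0.87 and -0.94), which differed by at most 0.013, 0.017 and 0.066. Likeness here rests on 2 arrays only.

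The wider pathway was then read through genes outside the 10. These lists too were chosen with earlier results of these data known, so their counts and p-values are not independent of that choice. Partners and regulators of HIF comprised 18 genes, of which 17 were measured, with a median log2 ratio of 0.066 against 0.016 over all genes. By the limma rule 2 rose (11.8%, beside 5.53% of all genes) and 0 fell. At an unadjusted p under 0.05 and any fold 7 were higher and 3 lower, beside 33.5% and 27% of all genes.

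*Cited2*, which encodes a protein that competes with HIF alpha for the coactivators p300 and CBP and is itself a HIF target, rose from 3012 to 6452 and from 2851 to 7180. Its log2 ratio averaged 1.22 ± 0.17 (SD, n = 2, limma adjusted p = 5.46e-05), with the higher value in replicate 2. The call was lost by the methods' t-test. *Rack1*, known for an oxygen-independent route of HIF alpha breakdown and as a ribosomal protein, rose with ratios of 0.84 and 0.66 (mean 0.75, limma adjusted p = 0.000171), but stayed within 1.5-fold with the processed signals and in the authors' deposited values, and was not called by the methods' t-test. The lowest ratio belonged to *Hif3a*, at -0.29, and its 3 probes disagreed in sign, from -0.29 to 0.29.

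The 60 HIF targets outside the 10 genes split in direction. Of 56 measured, 10 rose and 4 fell, with a median log2 ratio of -0.12. These shares are 17.9% raised and 7.14% lowered, beside 5.53% and 0.791% over all genes. Counting any fold at an adjusted p under 0.05, 21 were higher and 27 lower, or 85.7% of the targets beside 54.3% of all genes. Raised targets made up 71.4% of the changed targets here, 60% with processed signals and 93.8% with median centring. The targets share the control pool and the arrays with the 10 genes, and their roles are taken in turn.

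Targets that act in mitochondria moved downward where they passed the rule. Of 7 measured, 2 fell (28.6%) and 0 rose, beside 0.791% lowered and 5.53% raised over all genes by the same rule. The median was -0.20. At an unadjusted p under 0.05 and any fold the limma fit had 6 lower and 0 higher, beside 27% and 33.5% of all genes. *Bnip3*, which marks mitochondria for removal by autophagy, fell from 22748 to 11068 and from 21231 to 9347. Its log2 ratios were -1.04 and -1.18, mean -1.11 ± 0.10 (SD, n = 2, limma adjusted p = 4.61e-05), and its 3 probes ranged from -1.11 to -0.74.

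*Pdk1*, the kinase that keeps pyruvate out of the citrate cycle, fell from 5904 to 3733 and from 5342 to 3313. This was a mean log2 ratio of -0.68 ± 0.020 (SD, n = 2, limma adjusted p = 9.97e-05), and the call was lost with median centring. The highest ratio was 0.045, for *Bnip3l*, a close relative of *Bnip3*.

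Genes for glucose uptake and glycolysis were mixed. All 18 were measured, 2 rose and 2 fell (11.1% each, beside 5.53% raised and 0.791% lowered over all genes), and the median log2 ratio was -0.20. *Slc2a1*, the widely expressed glucose transporter GLUT1, rose with log2 ratios of 0.72 and 0.70 (limma adjusted p = 8.47e-05), but passed 1.5-fold neither with the processed signals nor in the authors' deposited values. *Pfkfb3*, which makes the activator of phosphofructokinase, rose with ratios of 0.79 and 0.87 (limma adjusted p = 6.54e-05), while its other probe gave a mean of 0.33 and the call was lost with the mean of all probes.

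The genes that fell were *Aldoc*, an aldolase, and *Pfkp*, a phosphofructokinase. *Aldoc* had log2 ratios of -0.65 and -0.75 (limma adjusted p = 0.000117), and *Pfkp* had -0.50 and -0.78 (limma adjusted p = 0.000584). The other *Pfkp* probe averaged -0.24, both calls were lost with median centring, and that of *Pfkp* also with the mean of all probes and by the methods' t-test. At an adjusted p under 0.05 and any fold 6 genes of the list were higher and 11 lower, or 94.4% beside 54.3% of all genes. The glycolytic list thus held both directions, and most of its ratios lay within 1.5-fold. These counts rest on the brightest probe of each gene. The probes of *Gapdh* (-0.29 to 0.37) and of *Hk1* (-0.085 to 0.16) differed in sign. Those of *Ldha* ran from -0.59, beyond 1.5-fold, to -0.27.

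Of 6 measured targets for pH control and glycogen, 0 passed the limma rule, beside 5.53% raised and 0.791% lowered over all genes. At an unadjusted p under 0.05 and any fold, however, 1 was higher and 4 were lower, beside 33.5% and 27% of all genes. They ran from -0.47 for *Ak4*, a mitochondrial adenylate kinase, to 0.29 for *Gbe1*, the glycogen branching enzyme. The median was -0.16.

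Targets for secreted factors and vessel growth lay the other way. Of 9 measured, 3 rose (33.3%) and 0 fell, beside 5.53% raised and 0.791% lowered over all genes by the same rule. The median was 0.22. At an unadjusted p under 0.05 and any fold 6 were higher and 2 lower, beside 33.5% and 27% of all genes. *Edn1*, the vasoconstrictor endothelin, rose from 264 to 590 and from 251 to 577, log2 ratios of 1.16 and 1.20 (limma adjusted p = 3.29e-05). *Flt1*, a VEGF receptor, rose with 0.78 and 0.73 (limma adjusted p = 7.45e-05). *Stc2*, a secreted glycoprotein, had the lowest ratio of the list, -0.55, short of 1.5-fold.

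Among 6 matrix enzymes 3 rose (50%) and 0 fell, beside 5.53% raised and 0.791% lowered over all genes by the same rule. The median of 0.49 was the highest of the role groups. At an unadjusted p under 0.05 and any fold 5 were higher and 0 lower, beside 33.5% and 27% of all genes. *Lox*, a lysyl oxidase that crosslinks collagen, rose with log2 ratios of 0.93 and 1.17 (limma adjusted p = 8.44e-05), a call lost by the methods' t-test. *Loxl2*, of the same family, rose with 0.65 and 0.74 (limma adjusted p = 0.000114), and *P4ha2*, a collagen prolyl hydroxylase, with 0.64 on both arrays (limma adjusted p = 0.000116). The 3 *Loxl2* probes ran from 0.41 to 0.69, and with the mean of all probes, 0.54, its call was lost. *P4ha1*, its close relative, had the lowest ratio at -0.070, and 0.11 with median centring.

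Fibroblast and primitive endoderm markers moved with the matrix and vessel groups. The median log2 ratio of the 10 fibroblast markers was 0.89, from 0.17 for *Thy1* to 1.42 for *Vim*, and their summed intensity was 31070 and 30424 in the pool against 65276 and 64130 in AIMP3-depleted cells. The median of the 10 primitive endoderm markers was 1.08, from 0.68 for *Lamb1* to 1.44 for *Sox17*, with sums of 181497 and 191563 against 388618 and 396844. The summed mESC markers were 265217 and 275548 against 296645 and 302957, a sum that the brightest marker, *Dppa5a*, carried upward. Without *Dppa5a* the mESC sums were 135113 and 134184 in the pool against 110538 and 105964 in AIMP3-depleted cells. The part of these cell types in the rise of *Edn1*, *Flt1*, *Lox*, *Loxl2* and *P4ha2* was not tested. The methods place drug treatment in conditioned medium, and removal of feeder fibroblasts before RNA extraction is not described.

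The remaining targets, for transcription, chromatin, stress and lipid, had a median of -0.097 over 10 measured genes. Of these 2 were raised (20%) and 0 lowered, beside 5.53% and 0.791% over all genes by the same rule. At an unadjusted p under 0.05 and any fold 3 were higher and 4 lower, beside 33.5% and 27% of all genes. *Hmox1*, the haem-degrading stress enzyme, rose with log2 ratios of 0.61 and 0.69 (limma adjusted p = 0.000135), but its other probe averaged 0.33 and the call was lost with the mean of all probes. *Ndrg1*, a differentiation and stress gene, rose with 0.59 and 0.68 (limma adjusted p = 0.000152). *Vldlr*, a lipoprotein receptor, was lowest at -0.54, within 1.5-fold.

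**Figure D3:**
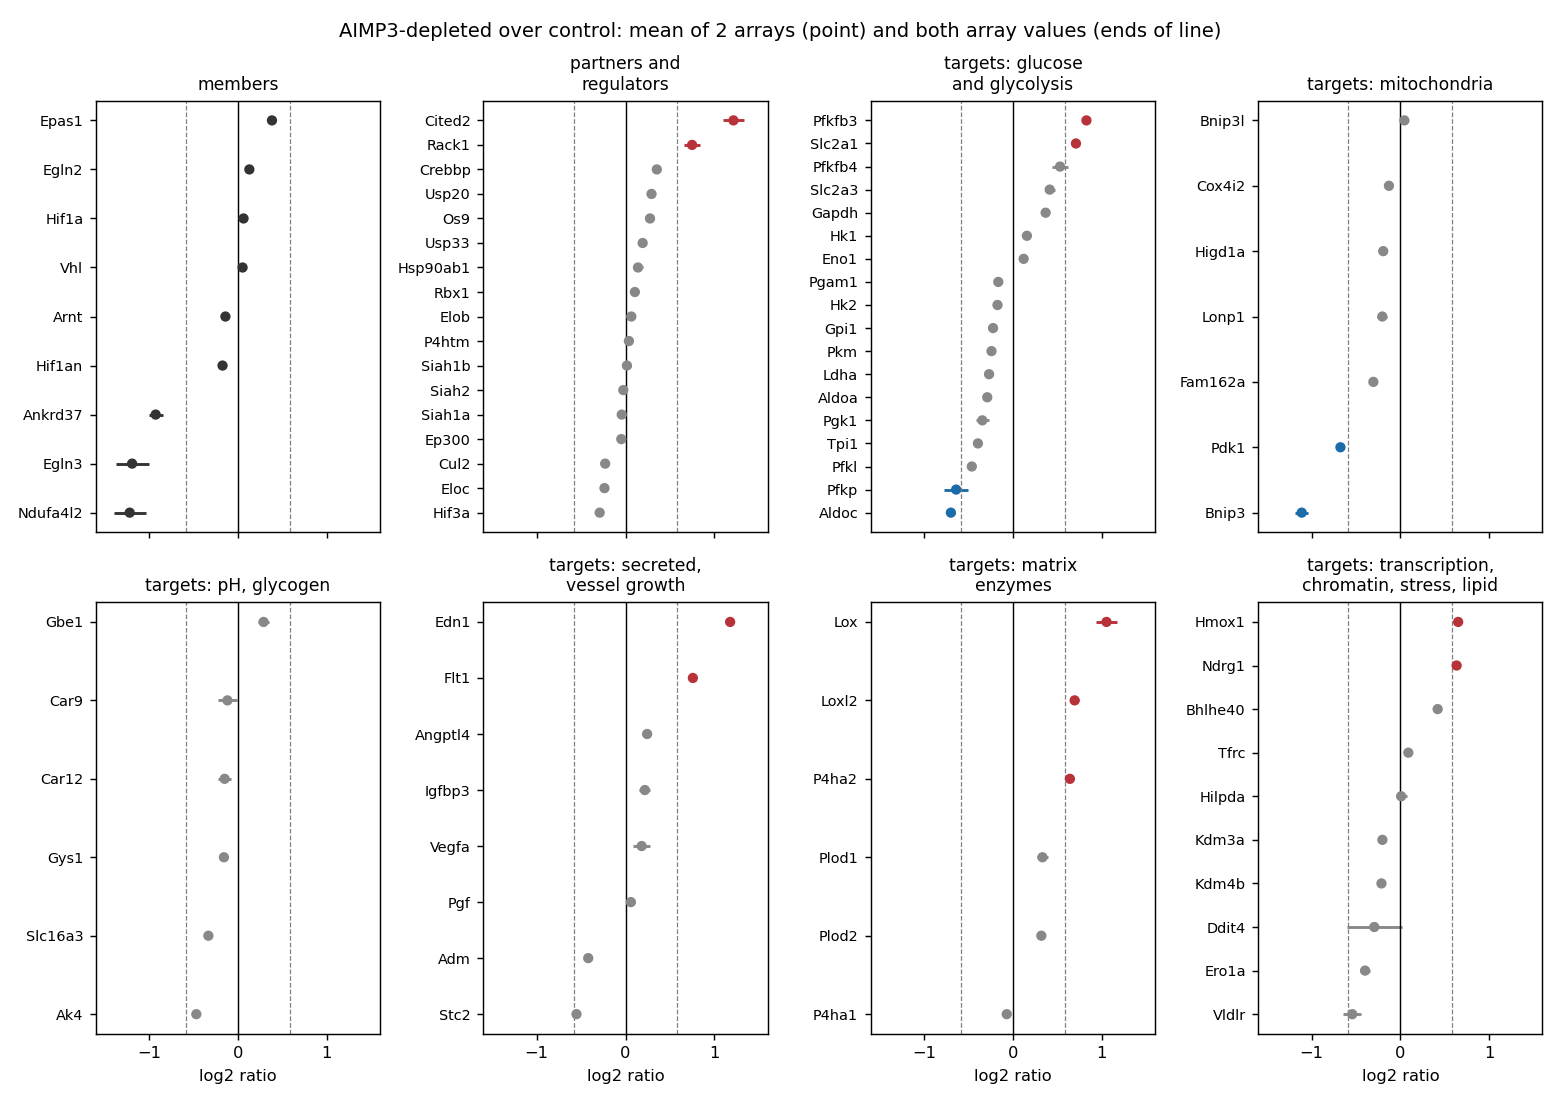
Log2 ratio of AIMP3-depleted cells over the control pool for the 9 measured genes of the 10 and for the listed partners and targets drawn, as the mean of 2 arrays (point) and both array values (ends of the line). Red and blue mark raised and lowered genes, black marks the 9 genes given without a test, and dashed lines mark 1.5-fold. *Bnip3* and *Pdk1* fell among mitochondrial targets, whereas *Lox*, *Loxl2* and *P4ha2* rose among matrix enzymes and *Edn1* and *Flt1* among the secreted and vessel genes drawn.

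The ratios furthest below control were then compared across ways of processing the arrays. Over 7 alternative corrections, normalizations, filters, probe rules and the authors' deposited values, the mean log2 ratio of *Egln3* ran from -1.28 to -0.99, that of *Ankrd37* from -1.05 to -0.73 and that of *Ndufa4l2* from -1.54 to -1.06. *Bnip3* ran from -1.13 to -0.82. All 4 thus stayed beyond 1.5-fold lower. The probe filters left all 4 values as reported, so those settings could not move them. The mean of all probes could not move *Ankrd37* and *Ndufa4l2* either, which have 1 probe each. Both were chosen for a low ratio in these data, so their staying low is no support. *Hif1a* ran from 0.037 to 0.27 and *Vhl* from 0.016 to 0.26, with the top of each range from median centring, which moved the median of all genes to 0.18. *Egln2* ran from 0.12 to 0.38 and *Hif1an* from -0.24 to -0.027, the upper end of each again from median centring. *Epas1* ran from 0.28 to 0.63 and passed 1.5-fold with median centring alone.

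**Figure D4:**
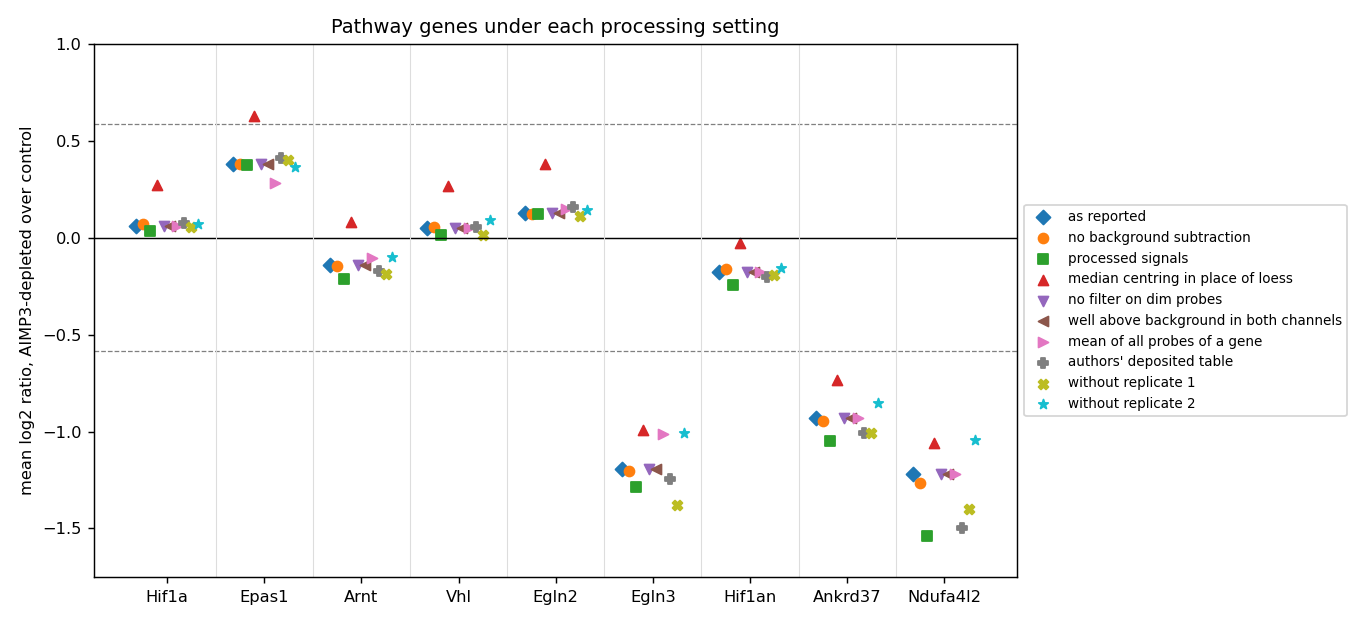
Mean log2 ratio of the 9 measured pathway genes under each processing setting, including each array on its own, with dashed lines at 1.5-fold. *Egln3*, *Ankrd37* and *Ndufa4l2* lie below the lower line under every setting drawn, and median centring (red triangles) gives the highest value for each of the other 6 genes.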

How the data were processed

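Agilent 2-colour mouse arrays of 2 AIMP3-depleted samples against 1 control pool were used. The authors deposited Feature Extraction output (version 11.5.1.1 in the file header), which holds the intensity of each spot and its local background, without normalization, beside background-subtracted, dye-normalized processed signals. A separate table that the authors deposited gives log2 ratios, and the scanner output also carries the software's own log10 ratio as deposited, which was not used. On comparison these equalled the log2 ratio of the processed signals plus 0.0404 (replicate 1) and 0.0395 (replicate 2) within 0.01 for 99.8% of probes, with column medians of 0.091 and 0.11. How that offset arose is not given in the sources used here, and 0 columns of sample values were left out.

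Median spot signals were background-corrected with limma (version 3.58.1 in R 4.3.3; normexp, offset 50) and normalized by loess within each array. Control spots and outlier-flagged spots (215 and 227) were left out, spots of a probe were averaged, and the brightest probe stood for a gene. The dim-probe filter asked for a signal well above background, in either channel, on both arrays, and 33012 of 55681 probes met it. The mean log2 ratio was tested against 0 with lmFit and eBayes (1 residual and 5.29 prior degrees of freedom), with Benjamini-Hochberg adjustment over 24022 genes. A changed gene was over 1.5-fold at an unadjusted p under 0.05, cut-offs that follow the study, whose methods name a t-test in place of limma. The methods describe that t-test as a comparison between groups. What is called the methods' t-test here was instead a 1-sample t-test of the 2 array log2 ratios against 0. The pipeline was tested on simulated data.

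Of the spots that are not controls, 31014 were named through RefSeq genes on GRCm38.p6, and the array was designed on mm9. Promoter sequences are RefSeq's, on GRCm38.p6. Named genes were the 10 pathway genes, genes of the pathway lists past the rule, the highest and lowest of each list, the 3 genes nearest to *Ankrd37* and to *Ndufa4l2*, and the extremes of each marker list. *Gapdh*, *Hk1* and *Ldha* were named for the spread of their probes. A raised gene of the list of secreted factors and vessel growth is counted but not reported here. The 10 genes and the lists were chosen with earlier results of these data known.

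Median signal over local background was 2.68 and 2.72 in Cy3 and 3.31 and 2.93 in Cy5, and 0 spots were saturated. The number of arrays limits the precision. Both arrays lay on 1 slide, and nothing states that the replicates were separate cultures, so p-values measure the spread between these samples, which may be technical, and leave out the spread of the pooled control. Alternatives covered background correction, dye normalization, probe filters, probe choice, the deposited table, thresholds, the methods' t-test and single arrays.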

Additional observations from a re-analysis of the deposited data

How the results depend on the processing

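The count of changed genes (1518) was 2720 with processed signals, 2891 with median centring, 2747 with the deposited table, 298 at 2-fold and 993 by the methods' t-test, of which 0 passed after Benjamini-Hochberg. Raised genes (1328) numbered 2827 with median centring, 2130 with the deposited table, 281 at 2-fold and 865 by the methods' t-test. Lowered genes (190) numbered 776 with processed signals, 64 with median centring, 617 with the deposited table and 17 at 2-fold. At 2-fold, 4 HIF targets changed, 3 raised and 1 lowered, and with median centring 1 was lowered. Changed partners and regulators (2) numbered 1 with processed signals, 4 with median centring, 1 with the deposited table, 1 at 2-fold and 0 by the methods' t-test. With median centring 1 of the 10 genes, *Epas1*, passed 1.5-fold upward, and the signs of *Arnt* (0.082) and *P4ha1* (0.11) turned. *Eef1e1*, at -0.90, missed the 2-fold limit. The causes were not tested.

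On single arrays, with no test, over 1.5-fold were 1522 to 1651 genes in all (1323 to 1398 higher, 199 to 253 lower), 13 to 17 HIF targets (10 to 11 higher, 3 to 6 lower) and 2 partners or regulators. *Eef1e1* was -0.90 on both. *Egln3*, *Ankrd37* and *Ndufa4l2* were the 3 lower genes on each array. Calls were also lost for *Pfkp*, *Pfkfb3*, *Loxl2* and *Hmox1* with the mean of all probes, for *Slc2a1* and *Rack1* with processed signals and the deposited table, and for *Cited2*, *Rack1*, *Pfkp* and *Lox* by the methods' t-test. *Stc2* passed with processed signals and the deposited table, and *Vldlr* with processed signals. Of 357 values of single genes under the alternatives, 308 kept their call or stayed within 1 SD and 2 changed sign. Much of this count was fixed in advance and does not measure robustness. With n = 2 either array lies within 1 SD of the mean by arithmetic. Settings that left a gene's values unchanged were counted too. No paired analysis was possible because the labels give 1 group of samples and the controls were pooled. A probe not well above background, such as that of *Egln1*, limits what can be read.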

Other observations

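*Ddit4*, a stress-induced inhibitor of growth signalling and a HIF target, was chosen after its values were seen, because its arrays disagreed more than those of the other listed targets. Its log2 ratios were 0.017 in replicate 1 and -0.60 in replicate 2, mean -0.29 ± 0.44 (SD, n = 2, limma adjusted p = 0.102), against a median SD between arrays of 0.048 over all genes. Like *Egln3* and *Ndufa4l2*, it was lower in replicate 2 than in replicate 1. *Vegfa*, the best-known HIF target among vessel growth factors and likewise named after its value was seen, had log2 ratios of 0.27 and 0.090, mean 0.18 (limma adjusted p = 0.0355), within 1.5-fold.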
